A study of Mus musculus with 8 samples.

Results

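Open chromatin was compared between medullary thymic epithelial cells of the mTEC-III and mTEC-IV populations, 2 libraries each of the 8 in the series, over all 74090 merged peaks of the study. Both populations came from the thymus of C57BL/6 mice, digested with Collagenase, Dispase and DNase, and chromatin was profiled by ATAC-seq. This assay uses a transposase that inserts sequencing adapters where DNA is accessible. mTEC-III was sorted as CD45-, Epcam+ and Ly6D+. mTEC-IV was sorted as CD45-, Epcam+, MHCII low, Itgb4- and L1cam+. The gates are not nested, since MHCII, Itgb4 and L1cam are not given for mTEC-III and Ly6D is not given for mTEC-IV. The labels give no genotype beyond the strain, no treatment, and no age, sex or number of animals, so replicate libraries may be technical and p-values measure the spread between libraries. The mTEC-III libraries held 5131245 and 6537908 tags and the mTEC-IV libraries 6010018.5 and 10374623 tags, and 8.44% and 11.003% of tags fell in merged peaks in mTEC-III against 18.1% and 14.2% in mTEC-IV. Log2 peak values of the replicate libraries correlated at r = 0.788 in mTEC-III and 0.920 in mTEC-IV, against 0.544 to 0.608 between the populations, over peaks as a description. Values below are normalized tags, that is tags per 10000000 total tags of a library, rescaled with TMM factors (a trimmed mean of log ratios) so that most features match between libraries. A gene's value is the sum of its merged peaks within 10 kb of the transcription start site (TSS), a measure of accessibility and not of RNA. In sorted pools, fewer cells with an open site and less opening per cell cannot be told apart.

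The thymic medulla presents self antigens to developing T cells. Part of the medullary epithelium expresses Aire and high MHC class II, and later stages lose Aire and take on features of other epithelia such as skin. Ly6D marks cells of that later kind. Tuft cells are rare chemosensory epithelial cells of gut and airway that depend on the transcription factor Pou2f3, carry taste receptors with their signalling chain, and release Il25 and lipid mediators, and tuft-like cells are known in the thymic medulla. H2-Aa and H2-Ab1, which encode chains of the MHCII in the mTEC-IV gate, were called higher in mTEC-III and are given below. Ly6d and L1cam, which encode sort markers, were not called different. Ly6d had 57.4 and 69.1 normalized tags in mTEC-III, against 43.9 and 44.6 in mTEC-IV (log2 difference 0.50 ± 0.27 SE, adjusted p = 0.266). L1cam had 3.59 and 3.09 normalized tags in mTEC-III, against 10.6 and 11.9 in mTEC-IV (log2 difference -1.50 ± 0.73 SE, adjusted p = 0.202). Itgb4, Epcam, Krt8 and Krt10 had log2 differences between -0.04 and 0.01 and were not called.

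Promoters whose own peak differed between the populations are shown first, because they give the DNA under clear contrasts at start sites, and they were picked after the values were seen. A promoter peak here is a merged peak with its centre within 300 bp of the TSS. The 4 promoters of genes with a higher promoter peak in mTEC-III are those of Gsdma3, a gasdermin of skin, Krt14, the basal keratin, Cxcl10, a chemokine of the interferon response, and H2-Aa, the alpha chain of MHC class II. The 4 with a lower promoter peak in mTEC-III are those of Apela, a peptide ligand of the apelin receptor, Tas2r134, a bitter taste receptor, Avil, the actin-binding protein advillin of tuft cells, and Alox5, which starts leukotriene synthesis. Sequences are from RefSeq on GRCm38.p6, not the mm9 build of the peaks, and run 5′ to 3′ on the gene's strand from 250 bases before the start to 50 after it. Capitals mark matches, on either strand, to NF-kB (GGANTTTCC), the Y box (CTGATTGG), AP-1 (TGANTCA), GRHL (AACCNGTT) and the octamer core (ATGCAAA).
Gsdma3, chr11:98626099-98626398, plus strand: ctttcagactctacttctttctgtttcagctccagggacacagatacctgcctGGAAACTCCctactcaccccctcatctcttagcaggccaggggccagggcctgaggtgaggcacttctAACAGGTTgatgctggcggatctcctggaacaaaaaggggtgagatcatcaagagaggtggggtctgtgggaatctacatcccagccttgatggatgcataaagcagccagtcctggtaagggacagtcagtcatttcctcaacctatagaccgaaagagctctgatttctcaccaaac
Krt14, chr11:100205981-100206280, minus strand: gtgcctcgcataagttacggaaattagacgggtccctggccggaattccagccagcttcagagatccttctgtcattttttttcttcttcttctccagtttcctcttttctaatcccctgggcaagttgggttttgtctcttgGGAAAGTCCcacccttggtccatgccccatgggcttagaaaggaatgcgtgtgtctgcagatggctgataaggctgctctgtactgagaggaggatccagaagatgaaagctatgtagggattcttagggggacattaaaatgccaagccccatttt
Cxcl10, chr5:92348840-92349139, minus strand: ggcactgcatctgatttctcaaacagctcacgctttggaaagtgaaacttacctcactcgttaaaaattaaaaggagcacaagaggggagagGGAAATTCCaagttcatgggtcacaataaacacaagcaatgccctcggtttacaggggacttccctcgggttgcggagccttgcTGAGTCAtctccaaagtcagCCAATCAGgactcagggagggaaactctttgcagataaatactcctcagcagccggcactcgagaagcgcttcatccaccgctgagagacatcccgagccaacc
H2-Aa, chr17:34287774-34288073, minus strand: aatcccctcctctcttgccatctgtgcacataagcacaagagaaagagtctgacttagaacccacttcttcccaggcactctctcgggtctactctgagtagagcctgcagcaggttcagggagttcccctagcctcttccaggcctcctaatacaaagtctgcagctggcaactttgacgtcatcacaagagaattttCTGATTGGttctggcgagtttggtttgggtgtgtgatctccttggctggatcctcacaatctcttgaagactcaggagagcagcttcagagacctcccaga
Apela, chr8:65037287-65037586, minus strand: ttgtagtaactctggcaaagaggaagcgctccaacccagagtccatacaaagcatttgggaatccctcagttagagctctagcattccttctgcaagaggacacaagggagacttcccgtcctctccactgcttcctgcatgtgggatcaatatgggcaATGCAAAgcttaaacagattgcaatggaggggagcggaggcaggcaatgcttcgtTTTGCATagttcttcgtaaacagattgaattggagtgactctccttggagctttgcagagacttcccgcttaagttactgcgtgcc
Tas2r134, chr2:51627261-51627560, plus strand: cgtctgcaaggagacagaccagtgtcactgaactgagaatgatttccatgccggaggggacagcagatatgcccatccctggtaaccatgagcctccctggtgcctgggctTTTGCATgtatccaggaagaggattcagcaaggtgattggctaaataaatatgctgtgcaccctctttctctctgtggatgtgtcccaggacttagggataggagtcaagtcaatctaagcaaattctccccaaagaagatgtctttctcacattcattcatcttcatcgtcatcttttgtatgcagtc
Avil, chr10:127000459-127000758, plus strand: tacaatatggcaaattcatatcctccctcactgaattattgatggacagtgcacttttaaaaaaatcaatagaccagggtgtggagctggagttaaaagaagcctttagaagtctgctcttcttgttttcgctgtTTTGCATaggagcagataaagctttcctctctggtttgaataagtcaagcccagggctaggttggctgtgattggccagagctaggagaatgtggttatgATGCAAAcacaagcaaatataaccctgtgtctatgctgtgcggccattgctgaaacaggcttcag
Alox5, chr6:116461129-116461428, minus strand: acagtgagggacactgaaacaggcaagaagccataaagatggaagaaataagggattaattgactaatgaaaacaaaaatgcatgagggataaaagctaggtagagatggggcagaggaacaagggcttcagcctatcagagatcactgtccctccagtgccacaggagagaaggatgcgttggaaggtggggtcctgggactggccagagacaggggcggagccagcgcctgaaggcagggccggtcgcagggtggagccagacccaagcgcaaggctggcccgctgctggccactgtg

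At the Gsdma3 promoter the peak had 25.01 and 18.3 normalized tags in mTEC-III and was at 0 in both mTEC-IV libraries. The Krt14 promoter peak had 15 and 13.2 normalized tags in mTEC-III, against 0.724 and 1.05 in mTEC-IV. The Apela promoter peak, which lay over the start of the gene on chr8:67561076-67561307 (mm9), had 0 and 4.07 normalized tags in mTEC-III, against 66.8 and 58.2 in mTEC-IV. The 2 libraries of each population did not overlap with those of the other at any of these promoters, which were picked from called peaks. The Avil promoter peak had 4.99 and 5.09 normalized tags in mTEC-III, against 52.3 and 36.5 in mTEC-IV. Alox5 had 4.99 and 4.07 at its promoter peak in mTEC-III, against 32.0 and 15.9 in mTEC-IV. Tas2r134 was at 0 in both mTEC-III libraries and at 11.6 and 13.7 in mTEC-IV. H2-Aa had 91.7 and 79.4 normalized tags at its promoter peak in mTEC-III, against 58.1 and 40.7 in mTEC-IV. Cxcl10 had 76.7 and 78.4 in mTEC-III, against 17.4 and 38.1 in mTEC-IV. The tuft cell promoters and that of Apela had little signal in mTEC-III, while the H2-Aa and Cxcl10 promoters were open in both populations and differed in degree.

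Of 58817 merged peaks that passed the filter on low values, 7214 were higher in mTEC-III (12.3%) and 6600 were lower (11.2%) by limma at an adjusted p of 0.05. The differences were large, with a median absolute log2 difference of 2.14 among the higher and 2.48 among the lower peaks. Of the 15008 genes tested, 929 were higher in mTEC-III (6.19%) and 654 lower (4.36%). Both mTEC-III libraries lay above both mTEC-IV libraries at all 929 higher genes, and below them at all 654 lower genes. Over all tested genes they lay above at 3996 and below at 3931. The balance of the directions depends on scaling. With the authors' scaling to total tags, which shifted the median log2 difference of all genes to -0.79, 3995 peaks and 276 genes were higher and 16034 peaks and 7600 genes lower. With TMM factors from promoter peaks, 8888 peaks were higher and 4508 lower, and with cyclic loess 7758 were higher and 4056 lower. With genes scaled by the factors of the peaks, 587 genes were higher and 1229 lower. Leaving out either mTEC-IV library left 247 or 467 lower peaks and 74 or 124 lower genes, in part because only 2601 or 2602 of the 6600 lower peaks then passed the filter, which needs 2 libraries above 10. The higher peaks were then 3148 or 4249 and the higher genes 331 or 470. Without mTEC-III replicate 1, 606 genes were higher, against 929 with it, and without mTEC-III replicate 2, 1131 were lower, against 654 with it.

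With TMM scaling, the peaks that differed lay away from promoters more often than tested peaks in general. Of 12706 promoter peaks, 2.28% were higher in mTEC-III and 7.52% lower, against 17.3% and 11.9% of 21063 intergenic peaks and 14.3% and 13.0% of 21107 intronic peaks. With distance from the TSS, the share of higher peaks was 2.33% within 1 kb, 13.5% from 1 to 10 kb, 15.97% from 10 to 100 kb and 20.4% beyond 100 kb. The share of lower peaks was 7.57%, 10.97%, 12.2% and 17.1% in the same bins. In peaks annotated to CpG islands away from promoters, 0.798% were higher and 7.84% lower. Which direction prevailed in a class depended on scaling. With factors from promoter peaks, 4.73% of promoter peaks were higher and 3.30% lower, and 2.12% of CpG island peaks were higher and 3.02% lower. With loess, 2.91% of promoter peaks were higher and 6.23% lower. With total-tag scaling, 99 of 12593 promoter peaks were higher (0.786%) and 4787 lower (38%), against 10.1% and 22.4% of intergenic peaks. The share of calls of either direction was smaller at promoters than at intergenic peaks with TMM, promoter-factor and loess scaling. With total-tag scaling it was larger at promoters.

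**Figure D1:**
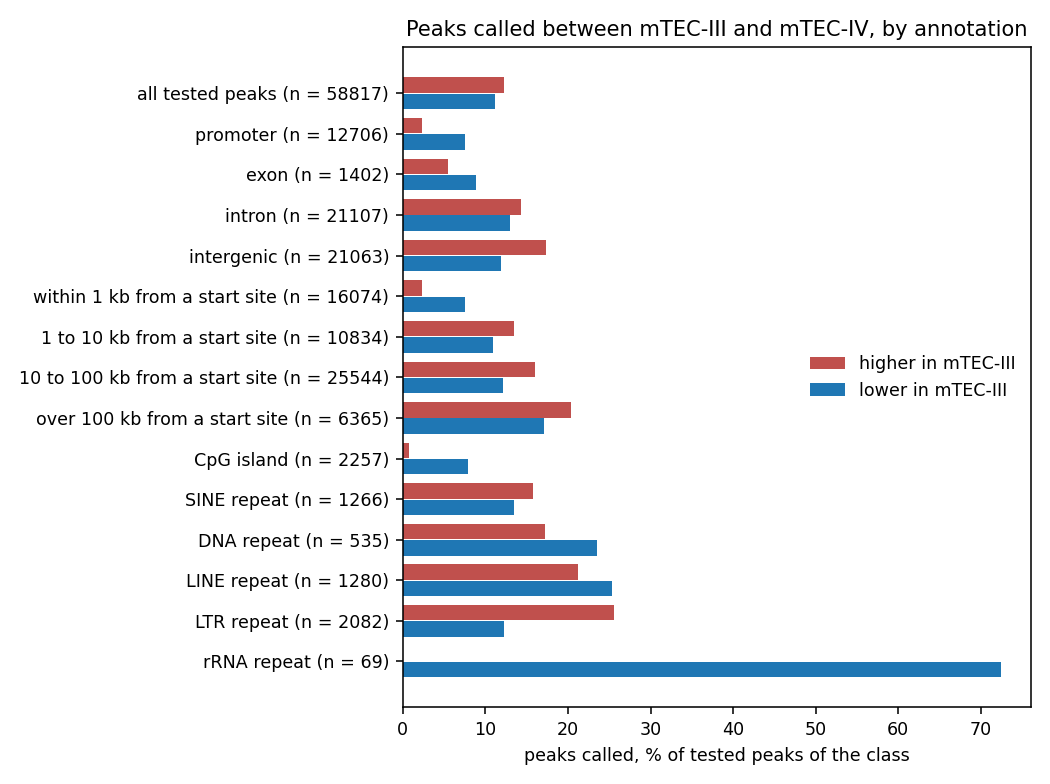
Share of tested merged peaks called higher (red) or lower (blue) in mTEC-III than in mTEC-IV, in percent, by annotation class, distance to the nearest start site and repeat class, with the number tested in brackets. With TMM scaling few promoter and CpG island peaks were higher in mTEC-III, LTR peaks were higher more often than lower, and 72.5% of peaks in rRNA repeats were lower; with promoter factors more promoter peaks were higher than lower, and with total-tag scaling more LTR peaks were lower than higher.

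Of 12436 tested peaks within 300 bp of a TSS, 216 were higher in mTEC-III (1.74%) and 930 lower (7.48%). Motif letters were counted on both strands of the RefSeq promoters of genes with these peaks, as a description with no test. A gene counted once in a set, with a match if any of its promoters held the letters. The share of all is per promoter, 32851 for 27025 gene symbols, and so in another unit than the sets. Below, promoters of a called or not called set stand for such genes. The NF-kB letters stood in 6.62% of the 151 genes with a higher promoter peak in mTEC-III and 1.98% of the 708 with a lower peak. They stood in 1.63% of the 7716 genes with peaks that were not called and in 1.25% of all promoters. The AP-1 letters stood in 16.6% of promoters higher in mTEC-III, in 4.52% of those lower, in 6.04% of those not called and in 7.81% of all. RUNX letters (TGTGGTTT) were found in 3.31% of the higher and 1.27% of the lower set, against 1.33% of promoters not called and 1.78% of all. GRHL letters were found in 3.97% of the higher and 1.98% of the lower set, against 2.18% of promoters not called and 2.09% of all. The octamer ATGCAAAT, the site of POU factors, stood in 2.65% of the higher and 3.81% of the lower set, against 1.58% of promoters not called and 1.74% of all. Its core ATGCAAA, which every octamer contains and which was added after the sequences above had been seen, stood in 7.28% of the higher and 7.91% of the lower set, against 4.11% of promoters not called and 4.63% of all promoters. The GAS letters (TTCNNNGAA) stood in 11.3% of the higher and 10.2% of the lower set, against 8.07% not called and 8.30% of all. The Y box stood in 6.62% of the higher and 6.36% of the lower set, against 6.96% not called and 4.10% of all, and the ETS letters (GAGGAAGT) in 3.31% and 4.10%, against 3.25% and 3.20%. The sets also differed in base composition, with a median GC content of 55.0% in the higher set, 62.0% in the lower set and 61.3% in promoters not called, and the part of this in the motif shares was not tested.

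The called peaks were then looked up in the authors' own peak lists, which hold 10525 and 19507 peaks in the mTEC-III libraries and 30017 and 38108 peaks in the mTEC-IV libraries. Of the peaks higher in mTEC-III, 15.8% stood in both mTEC-III lists, 45.0% in at least 1, and 54.7% in no list of either population. Of the peaks not called, 17.9% stood in both mTEC-III lists, 35.5% in at least 1, and 32.6% in no list of either population. Of the peaks lower in mTEC-III, 77.6% stood in both mTEC-IV lists, 98.0% in at least 1, and 2.02% in no list of either population. Among peaks not called, 42.7% stood in both mTEC-IV lists and 63.8% in at least 1. On average 75.4% of an mTEC-III library's own peaks overlapped a peak of an mTEC-IV library by at least 1 bp, and 34.2% of an mTEC-IV library's peaks overlapped one of mTEC-III. With the 10525 best-scored peaks of each library, the shares were 66.6% and 69.0%, so the gap between the shares was smaller at equal length. The other 2 populations, mTEC-I (MHCII low, Itgb4+) and mTEC-II (MHCII high), were mostly nearer to mTEC-III at these peaks. At peaks higher in mTEC-III the median was 20 and 18.3 normalized tags in the mTEC-III libraries, 18.4 and 20 in those of mTEC-II, 17.2 and 17.3 in those of mTEC-I, and 2.91 and 3.70 in those of mTEC-IV. At peaks lower in mTEC-III it was 3.34 and 4.07 in the mTEC-III libraries, 3.46 and 3.07 in those of mTEC-II, 1.33 and 1.08 in those of mTEC-I, and 26.1 and 25.4 in those of mTEC-IV. By log2 means mTEC-II lay on the mTEC-III side of the midpoint between mTEC-III and mTEC-IV at 88.8% of the higher and 85.4% of the lower peaks, and mTEC-I at 69.1% and 81.7%.

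Several repeat families had most of their called peaks in 1 direction. Among all tested peaks, 12.3% were higher in mTEC-III and 11.2% lower. Long terminal repeats (LTRs) of endogenous retroviruses carry promoter and enhancer sequence that cells can use as regulatory DNA, and LINE elements are retrotransposons without LTRs. Of 2082 LTR peaks, 25.6% were higher in mTEC-III and 12.3% lower, and of 1280 LINE peaks 21.2% were higher and 25.3% lower. With total-tag scaling, 16.6% of LTR peaks were higher and 22.2% lower. Families with at least 20 tested peaks were ranked by their shares, and those named were chosen after their values were seen. Of 54 peaks in RMER4B, an ERVK LTR, 42 were higher in mTEC-III and 1 was lower. Their summed signal was 1058 and 949 normalized tags in mTEC-III, 1235 and 1525 in the mTEC-II libraries, 468 and 438 in the mTEC-I libraries, and 175 and 245 in mTEC-IV. RLTR23, an ERV1 LTR, had 39 of 61 peaks higher and 5 lower, and RLTR14, also of ERV1, 24 of 38 higher and none lower. The summed RLTR14 signal was 615 and 578 in mTEC-III against 188 and 199 in mTEC-IV. Of the L1 families, 13 of 26 Lx5 peaks and 32 of 71 Lx6 peaks were higher in mTEC-III.

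On the other side stood MER2, a DNA transposon, with 34 of 47 peaks lower in mTEC-III and none higher. Its summed signal was 210 and 209 normalized tags in mTEC-III, against 1160 and 1182 in mTEC-IV, and between 37.1 and 124 in the mTEC-II and mTEC-I libraries. Older L1 families were also lower, with 13 of 22 L1MA4 peaks, 18 of 32 L1M2 peaks and 9 of 21 L1MB3 peaks. The share of all tested peaks that were lower was 11.2%. Peaks in rRNA repeats were lower as a set, 50 of 69, with summed signals of 7912 and 7793 in mTEC-III against 20060 and 18600 in mTEC-IV. Copies of a repeat are alike, and how reads that match several copies were placed is not given in the sources used here, so signal in single copies is uncertain and rRNA signal most of all.

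**Figure D2:**
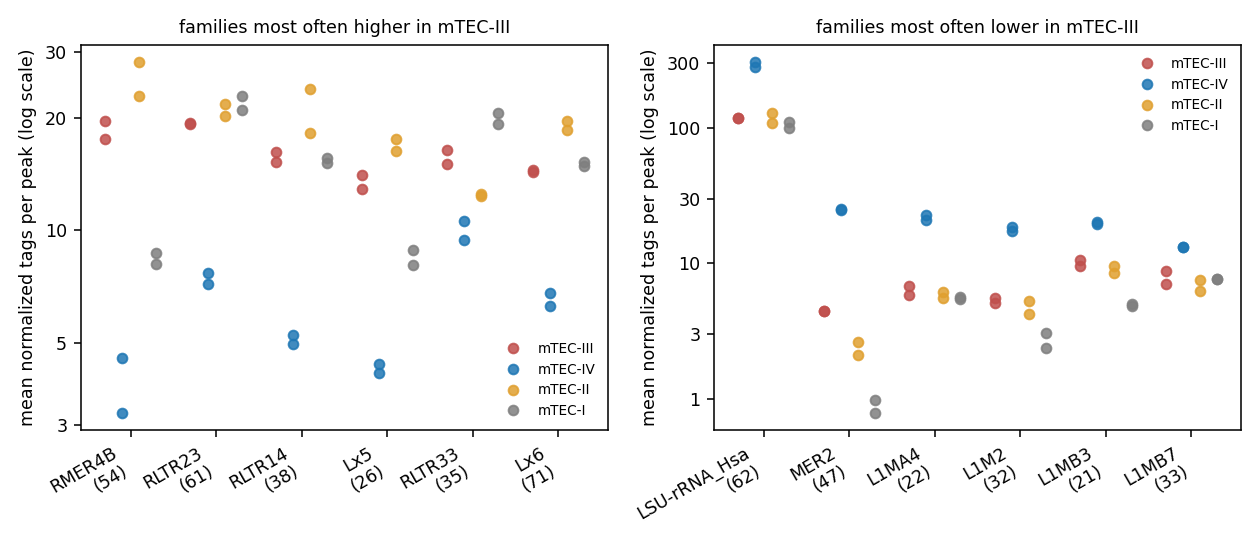
Mean normalized tags per tested peak (log scale) in each library, for the 6 repeat families with the highest share of peaks higher in mTEC-III (left) and the 6 with the highest share lower (right), points coloured by population and the number of tested peaks in brackets. In each of the 12 families, which were picked by these shares, the 2 mTEC-III libraries lie apart from the 2 mTEC-IV libraries.

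Some antigen presentation genes were higher in mTEC-III, and none was lower. MHC class II molecules load peptides for CD4 T cells, and Ciita is the coactivator that turns on their genes. Since mTEC-IV was sorted as MHCII low, differences at class II genes and their region are not independent of the sort. The part of the gate in them was not tested. Among all genes tested, 6.19% were called higher in mTEC-III and 4.36% lower. Of 19 genes of MHC class II presentation, all tested, 9 were higher in mTEC-III and none lower, with a median log2 difference of 0.54 against -0.01 for all genes tested, but a median of -0.25 with total-tag scaling, where 1 was higher and 1 lower. H2-Ab1, the beta chain of I-A, had 355 and 272 normalized tags in mTEC-III, against 130 and 125 in mTEC-IV. Both mTEC-III libraries lay above both mTEC-IV libraries (log2 difference 1.28 ± 0.14 SE, limma adjusted p = 9.00e-06). H2-Aa had 333 and 265 normalized tags in mTEC-III, against 165 and 143 in mTEC-IV (log2 difference 0.95 ± 0.13 SE, adjusted p = 0.000117). Ciita had 89.6 and 37.1 in mTEC-III, against 15.3 and 19.8 in mTEC-IV, with the mTEC-III libraries apart from each other but both higher (log2 difference 1.67 ± 0.32 SE, adjusted p = 0.00193). H2-Oa, H2-Eb2, Cd74, H2-Eb1, Ifi30 and H2-DMb2 made up the 9, with log2 differences of 0.54 to 1.78. With total-tag scaling H2-Ab1 stayed positive at 0.49 without a call, Ciita was still called, and H2-Eb1, Ifi30 and H2-DMb2 turned negative without a call.

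The class II region also held the longest run of neighbouring peaks of 1 direction. From H2-Oa to BC051142, on chr17:34229173-34535880 (mm9), 23 of 57 tested peaks were higher in mTEC-III and none was lower. Their summed signal was 1530 and 1215 normalized tags in mTEC-III, 1442 and 1429 in the mTEC-II libraries, 997 and 992 in the mTEC-I libraries, and 631 and 615 in mTEC-IV. The promoter peak of H2-Oa, which encodes a chain of the H2-O regulator of peptide loading, had 19.99 and 31.6 normalized tags in mTEC-III, against 5.81 and 9.52 in mTEC-IV. Within the span, peaks at the starts of Brd2, Psmb8 and Tap2 were not called, with log2 differences between -0.20 and 0.09. Nor were those at the starts of Tap1 (0.54) and H2-Ob (0.66). Larger differences included 2.30 at a peak 289 bp before the start of H2-DMb2, which encodes a chain of the peptide loading factor H2-DM, 2.65 at an intronic peak 5737 bp from the H2-Eb2 start and 2.50 at a peak 6701 bp from the start of Psmb9, an immunoproteasome subunit.

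**Figure D3:**
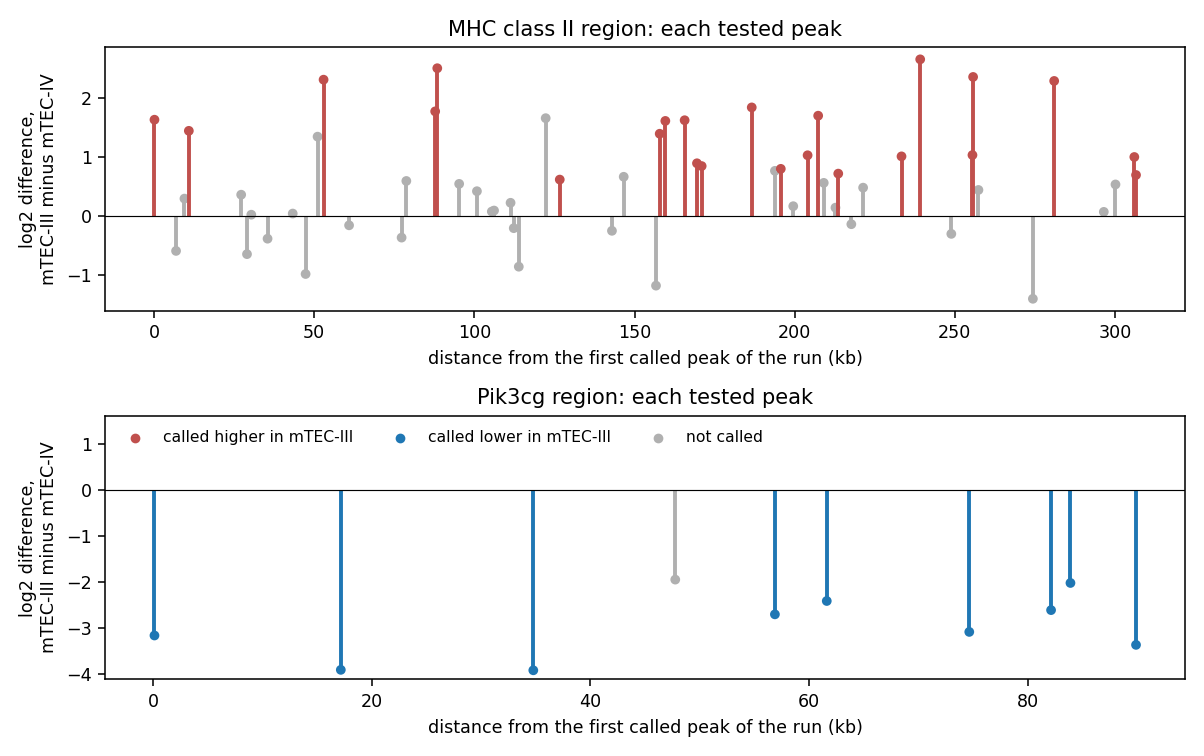
Log2 difference, mTEC-III minus mTEC-IV, of every tested peak along the longest run of higher peaks (top, MHC class II region) and the longest run of lower peaks (bottom, Pik3cg), by distance from the first called peak of the run in kb. Of 57 peaks in the upper run 23 were called higher, and of 10 in the lower run 9 were called lower.

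Of 15 tested genes of MHC class I presentation, 5 were higher in mTEC-III and none lower, with a median of 0.31 (-0.47 with total-tag scaling, where 1 was higher and 3 lower). Psmb9 had 25.1 and 25.8 normalized tags in mTEC-III, against 1.998 and 7.43 in mTEC-IV (log2 difference 2.40 ± 0.46 SE, adjusted p = 0.00206). Its peaks within 10 kb were intergenic, 7359 and 6701 bp from its start. Tap1, the peptide transporter, B2m, the light chain of class I, Tapbp and H2-K1 had log2 differences of 0.50 to 0.71, beside 0.50 to 0.63 for the 3 of 19 housekeeping genes called higher, Actb, Hsp90ab1 and Ppia. The direction of these small differences turned with total-tag scaling for each of Tap1, B2m, Tapbp, H2-K1, Actb, Hsp90ab1 and Ppia. The median of all 19 housekeeping genes was 0.072, and 6.19% of all tested genes were called higher and 4.36% lower. Without mTEC-IV replicate 1 no class I gene was called, without mTEC-IV replicate 2 it was 1, and without mTEC-III replicate 1 it was 3 higher and 1 lower.

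The called NF-kB genes and genes of the Aire stage were also higher in mTEC-III. NF-kB is the factor that acts downstream of the receptors RANK (Tnfrsf11a) and Cd40 in medullary epithelium. The share of all tested genes called was 6.19% higher and 4.36% lower. Of 23 genes of the pathway, 9 were higher in mTEC-III and none lower, with a median of 0.41 (-0.38 with total-tag scaling, where none was higher and 4 lower). Without mTEC-IV replicate 1 the pathway had 3 calls. Nfkbia, the inhibitor that NF-kB itself induces, had 484 and 466 normalized tags in mTEC-III, against 288 and 298 in mTEC-IV (log2 difference 0.70 ± 0.10 SE, adjusted p = 0.000196, and -0.10 with total-tag scaling). Around Nfkbia 9 of 12 tested peaks on chr12:56566455-56607190 (mm9) were higher, with summed signals of 388 and 374 in mTEC-III against 183 and 180 in mTEC-IV. In this run the promoter peak differed by 0.65 and a peak 13860 bp from the start by 2.30 on the log2 scale. Nfkbie, another inhibitor, had 197 and 165 normalized tags in mTEC-III, against 85.1 and 96.6 in mTEC-IV. Traf1, a signalling adaptor, had 163 and 157 in mTEC-III, against 63.8 and 105 in mTEC-IV. Relb, the subunit needed for medullary epithelium, had 303 and 263 in mTEC-III, against 156 and 194 in mTEC-IV. These groups did not overlap, and the log2 differences of Nfkbie, Traf1 and Relb were 0.98, 0.96 and 0.70, of which only that of Relb was negative with total-tag scaling (-0.10).

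Of 16 tested genes of the Aire stage, 6 were higher in mTEC-III and none lower, with a median of 0.52 (-0.29 with total-tag scaling, where 1 was higher and 2 lower). Aire itself had 39.4 and 53.6 normalized tags in mTEC-III, against 33.9 and 31.2 in mTEC-IV, and was not called (log2 difference 0.49 ± 0.28 SE, adjusted p = 0.290). Pdcd1lg2, the checkpoint ligand PD-L2, had 87.8 and 75.3 in mTEC-III, against 21.9 and 18.8 in mTEC-IV (log2 difference 1.95 ± 0.22 SE, adjusted p = 1.20e-05), and kept its call with total-tag scaling (1.17). Cd40 had 68.1 and 85.6 in mTEC-III, against 35.2 and 32.7 in mTEC-IV (log2 difference 1.15 ± 0.23 SE, adjusted p = 0.00242). Fezf2, a regulator of self antigen genes, had 50.2 and 57.8 in mTEC-III, against 29.3 and 23.8 in mTEC-IV (log2 difference 1.002 ± 0.28 SE, adjusted p = 0.0247). Cd86, a costimulatory ligand, had low signal in all 4 libraries, 14.4 and 6.19 in mTEC-III against 0.663 and 0 in mTEC-IV, and a log2 difference of -0.25 with peaks at any distance. Irf8 and Tnfrsf11a were the other members called, and Cd80 was not called at 0.18. These 6 calls stand beside 6.19% of all tested genes called higher and 4.36% lower. Leaving out either mTEC-IV library gave 2 calls in this list.

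Single keratin and chemokine genes were higher in mTEC-III. Krt14 had 115 and 91.8 normalized tags in mTEC-III, against 27.2 in both mTEC-IV libraries (log2 difference 1.88 ± 0.22 SE, adjusted p = 2.23e-05, and 1.09 with total-tag scaling, still called). Krt17, a keratin of stressed and hair follicle epithelium, had 53.8 and 35.1 in mTEC-III, against 20.6 and 25.8 in mTEC-IV (log2 difference 0.89 ± 0.27 SE, adjusted p = 0.0376). Krt5 and Trp63, other basal genes, were not called over all their peaks, at 0.53 and 0.56, while their promoter peaks were called higher. The Krt5 promoter peak had 3.33 and 9.16 normalized tags in mTEC-III, against 0.724 and 1.05 in mTEC-IV (log2 difference 1.82 ± 0.62 SE, adjusted p = 0.0432). It passed the filter only through mTEC-I, with 41.1 and 48.8. The Trp63 promoter peak had 11.7 and 7.12 in mTEC-III, against 0.724 and 0 in mTEC-IV (log2 difference 2.95 ± 0.93 SE, adjusted p = 0.0303). Both peaks are low, since 3 tags are 10 and 6.11 normalized tags in the mTEC-III libraries. In the same list of 16 basal keratin and adhesion genes, 2 were higher and 3 lower, the lower ones being Itgb6 (-2.19, but 0.31 with peaks at any distance), Plec (-0.56) and Itga3 (-0.51), which encode adhesion proteins. Over all genes tested, 6.19% were called higher and 4.36% lower, beside which the few calls in these lists should be read. Of 27 interferon response genes 2 were higher, the chemokines Cxcl9 and Cxcl10, and none lower, while with total-tag scaling 1 was higher and 11 lower (median -0.61). Cxcl9 had 46.6 and 34.0 normalized tags in mTEC-III, against 10.6 and 7.43 in mTEC-IV (log2 difference 2.04 ± 0.43 SE, adjusted p = 0.00396). Cxcl10 had 109 and 128 in mTEC-III, against 35.9 and 52.0 in mTEC-IV (log2 difference 1.43 ± 0.19 SE, adjusted p = 7.91e-05), and 0.64 without a call with total-tag scaling (adjusted p = 0.0643). The other 25 tested interferon genes were not called, and the list's median was 0.18. Of 20 tested genes of cornified epithelium, Spink5, a protease inhibitor of skin, and Aloxe3, a skin lipoxygenase, were higher (Aloxe3 by 0.63, but -0.16 with total-tag scaling), and Calml3 was lower. Calml3 had 25.1 and 13.4 in mTEC-III, against 59.2 and 55.5 in mTEC-IV (log2 difference -1.59 ± 0.39 SE, adjusted p = 0.0119), but a log2 difference of 0.12 with peaks at any distance. Of 33 cornified genes listed, 10 had no merged peak within 10 kb and 3 fell under the filter.

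**Figure D4:**
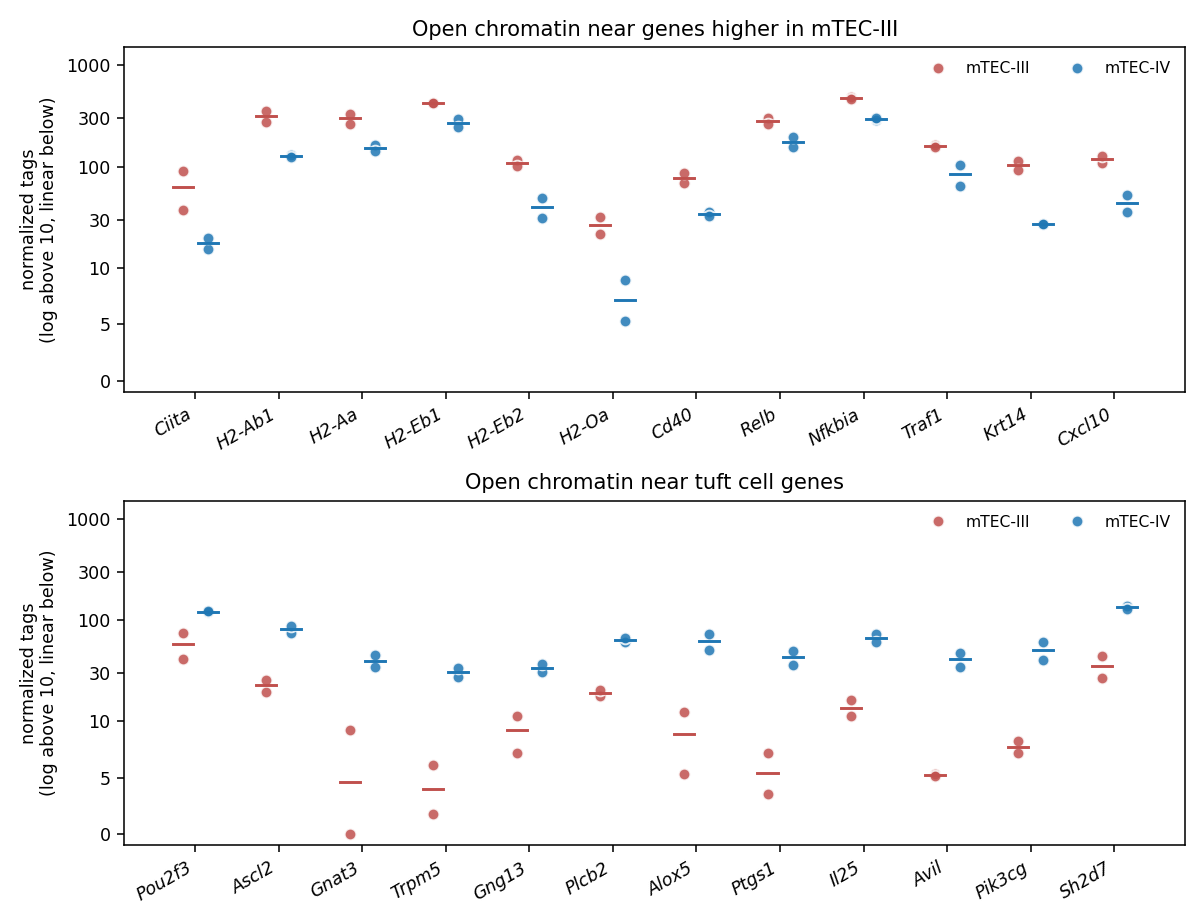
Normalized tags in merged peaks within 10 kb of the start of each gene, in each library (points) with the mean of each population (line), mTEC-III left and mTEC-IV right; the axis is logarithmic above 10 and linear below. The 2 mTEC-III libraries lie above both mTEC-IV libraries for all 12 genes of the upper panel and below them for all 12 of the lower panel, which were picked from the genes called; with total-tag scaling the differences of H2-Eb1, Relb and Nfkbia were negative.

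Tuft cell genes made up most of the list genes called lower in mTEC-III. Over all genes tested, 4.36% were called lower. Of 13 regulators, 4 were lower, Pou2f3, Ascl2, Foxe1 and Runx1, and none was higher, with a median of -0.64. The log2 difference was positive at 4 of the 13. With promoter factors, loess or edgeR 1 regulator was called higher, as with peaks within 1 kb or at any distance. Pou2f3, on which tuft cells depend, had 75.3 and 41.2 normalized tags in mTEC-III, against 119 and 123 in mTEC-IV (log2 difference -1.11 ± 0.25 SE, adjusted p = 0.00612). Its chromatin was thus open in both populations, and of its 7 peaks 1 was called lower. Ascl2, a regulator of tuft cell fate, had 19.7 and 25.8 in mTEC-III, against 75.1 and 87.2 in mTEC-IV (log2 difference -1.80 ± 0.50 SE, adjusted p = 0.0244, but 0.121 with DESeq2), and 3 of its 4 peaks were lower. Runx1 had 127 and 105 in mTEC-III, against 217 and 231 in mTEC-IV (log2 difference -0.95 ± 0.16 SE, adjusted p = 0.000501). Gfi1b, a marker of tuft cells, was not called at -0.64, nor were Spib, Hmx2, Hmx3 and Sox9. Leaving out either mTEC-IV library gave 1 call among the regulators.

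Most of the taste signalling chain was less open in mTEC-III. In taste and tuft cells bitter receptors act through gustducin (Gnat3 with Gnb3 and Gng13), phospholipase Plcb2 and the channel Trpm5. Of 11 tested genes of this chain 6 were lower and none higher, with a median of -1.68. Gnat3 had 0 and 9.28 normalized tags in mTEC-III, against 45.2 and 34.2 in mTEC-IV (log2 difference -3.65 ± 0.89 SE, adjusted p = 0.0112, but 0.200 with DESeq2). Trpm5 had 1.78 and 6.18 in mTEC-III, against 27.3 and 33.7 in mTEC-IV (log2 difference -2.81 ± 0.72 SE, adjusted p = 0.0152). Plcb2 had 17.9 and 20.6 in mTEC-III, against 61.2 and 66.9 in mTEC-IV. Gng13, Gnb3 and Rgs21, a regulator of G proteins in taste cells, were the other 3, with log2 differences of -1.78, -1.35 and -1.90. Itpr3, the calcium channel of the chain, had 57.4 and 58.8 in mTEC-III, against 68.5 and 92.7 in mTEC-IV and was not called. Without mTEC-IV replicate 1 the calls were 2 of 8 tested and without replicate 2 they were 1 of 8.

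Most bitter receptor genes that could be tested were lower as well. Of 19 Tas2r genes in the table, 4 had no merged peak within 10 kb and 3 fell under the filter. Of the 12 tested, 8 were lower in mTEC-III and 1 higher, with a median of -1.97, or -1.86 with Tas2r134, which was at 0 in both mTEC-III libraries, set at its bound. Tas2r118 had 8.96 and 19.6 normalized tags in mTEC-III, against 79.1 and 77.8 in mTEC-IV. Tas2r137 had 10.7 and 10.3 normalized tags in mTEC-III, against 66.5 and 66.4 in mTEC-IV (log2 difference -2.55 ± 0.59 SE, adjusted p = 0.00808). Tas2r102 had 7.17 and 0 in mTEC-III, against 36.6 and 29.2 in mTEC-IV, and Tas2r121 had 10.8 and 1.02 in mTEC-III, against 39.2 and 29.7 in mTEC-IV. Both lost their call with DESeq2, at adjusted p = 0.219 for Tas2r102 and 0.338 for Tas2r121. Tas2r134 was at least 1.39-fold lower, taking a floor of 3 tags in each library averaged over the population. Tas2r135 went the other way, with 28.7 and 13.4 in mTEC-III against 3.99 and 2.97 in mTEC-IV (log2 difference 2.22 ± 0.58 SE, adjusted p = 0.0163). Receptors in the clusters are related in sequence, so signal in single genes is uncertain where reads could match several, and none of 7 still tested was called when either mTEC-IV library was left out. Without mTEC-III replicate 2, 4 of the 12 were lower.

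Effector and cytoskeletal genes of tuft cells followed. Of 14 tested effector genes 7 were lower and none higher, with a median of -1.01. Ptgs1, the cyclooxygenase of tuft cells, had 3.59 and 7.22 normalized tags in mTEC-III, against 49.9 and 36.2 in mTEC-IV (log2 difference -2.83 ± 0.56 SE, adjusted p = 0.00248). Alox5 had 5.37 and 12.4 over its 3 peaks in mTEC-III, against 73.1 and 51.0 in mTEC-IV (log2 difference -2.75 ± 0.55 SE, adjusted p = 0.00266). Il25, the cytokine by which tuft cells act on innate lymphoid cells, had 16.1 and 11.3 in mTEC-III, against 73.1 and 60.9 in mTEC-IV (log2 difference -2.22 ± 0.37 SE, adjusted p = 0.000535). The leukotriene genes Alox5ap and Ltc4s and the prostaglandin synthase Hpgds were lower too, with Il13ra1. Il17rb, the receptor for Il25, had 7.17 and 6.19 in mTEC-III, against 27.9 and 24.8 in mTEC-IV, and missed the threshold (adjusted p = 0.0564). Chat, the enzyme of acetylcholine synthesis, was not called at -0.71. Without mTEC-IV replicate 1 the effector calls were 1 of 13 tested and without replicate 2 they were 3 of 13.

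Of 23 tested genes of the tuft cytoskeleton and signalling, 12 were lower and none higher, with a median of -0.99. Avil had 5.37 and 5.15 normalized tags in mTEC-III, against 47.9 and 34.2 in mTEC-IV (log2 difference -2.73 ± 0.70 SE, adjusted p = 0.0153). Vil1, the microvillus protein villin, had 0 and 3.09 in mTEC-III, against 11.3 and 24.8 in mTEC-IV, but a log2 difference of 0.25 with peaks at any distance. Bmx, a tyrosine kinase, had 7.17 and 9.28 in mTEC-III, against 45.2 and 34.2 in mTEC-IV. Inpp5d, a phosphatase of the PI3 kinase pathway, had 28.7 and 32.0 in mTEC-III, against 131 and 141 in mTEC-IV. Dclk1, a common tuft marker, was not called at -0.48, with 35.9 and 59.8 in mTEC-III against 63.8 and 65.9 in mTEC-IV. In these 5 lists Tas2r135 was the 1 member called higher in mTEC-III by limma with TMM scaling and peaks within 10 kb. The medians of the 5 lists were negative with total-tag, promoter, peak-factor and loess scaling as well. Without mTEC-IV replicate 1 the cytoskeleton and signalling list had 1 call and without replicate 2 it had 3, of 18 tested.

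**Figure D5:**
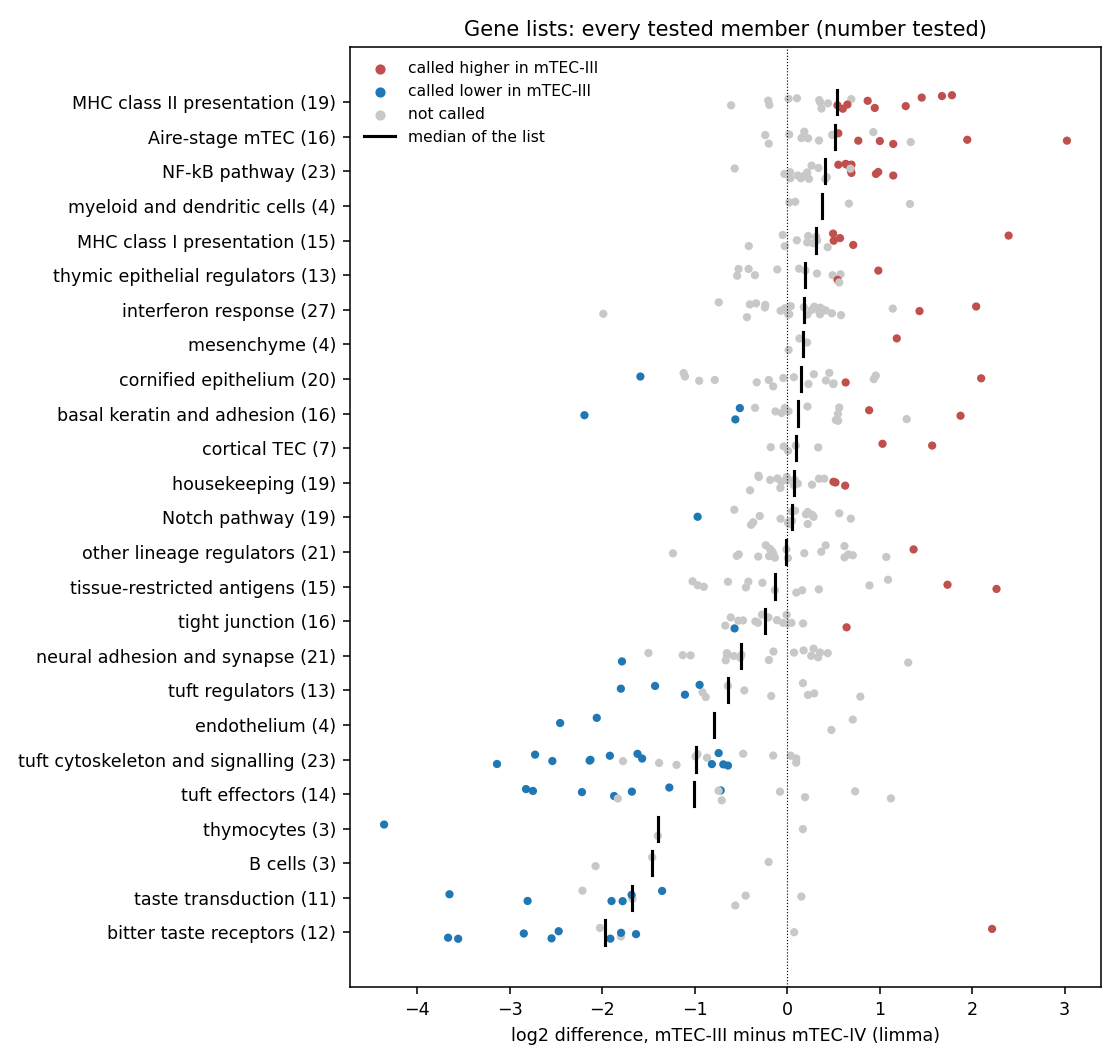
Log2 difference, mTEC-III minus mTEC-IV, of every tested member of 25 gene lists, with members called higher in red, called lower in blue and not called in grey, the median of each list as a black bar and the number tested in brackets. With TMM scaling, the 5 tuft and taste lists lie to the left and the MHC class II, Aire-stage and NF-kB lists to the right. The B cell (median -1.46), thymocyte (-1.40) and endothelial (-0.79) lists, with 3, 3 and 4 tested members, also lie to the left. With total-tag scaling the medians of the MHC class II, Aire-stage and NF-kB lists were negative.

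Neighbouring peaks were lower together around some tuft genes. At Pik3cg, the catalytic gamma subunit of PI3 kinase, 9 of 10 tested peaks on chr12:32831586-32921583 (mm9) were lower in mTEC-III, with log2 differences of -3.91 to -2.02. Their summed signal was 23.3 and 31.6 normalized tags in mTEC-III, 21.9 and 27.6 in the mTEC-II libraries, 6.19 and 7.05 in the mTEC-I libraries, and 257 and 253 in mTEC-IV. At Lrmp, a marker of tuft cells, 7 of 8 peaks on chr6:145072290-145109388 (mm9) were lower, with sums of 28.3 and 27.5 in mTEC-III against 145 and 153 in mTEC-IV. Further runs of 8 lower peaks lay around Gpr37l1, Arl8a and Elf3 on chromosome 1, Clmn and Syne3 on chromosome 12, and on chromosome 16. Peaks of this last run lay in introns of other transcripts, at -217919 to -24658 bp from the nearest start, that of Umps, and their sums were 28.3 and 22.4 in mTEC-III, against 150 and 184 in mTEC-IV. Among runs of higher peaks, 2310008N11Rik on chromosome 8 had 11 of 13 peaks higher, with sums of 195 and 153 in mTEC-III against 22.5 and 36.0 in mTEC-IV. Tiam1, an activator of the GTPase Rac, had 11 of 22 peaks of its span higher, and Gpc1 with Otos on chromosome 1 had 10 of 20. In all, 49.0% of higher and 46.2% of lower peaks had a neighbouring called peak of the same direction within 50 kb, with none of the other direction between. How often tested peaks in general have such a neighbour was not counted. Peaks called in both directions were assigned to 1518 genes, against 3120 genes with higher peaks only and 2958 with lower peaks only.

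Of the 6 single peaks with the largest rise in mTEC-III by the naming rule, none lay at a promoter. A peak in the 3′ UTR annotation of Il1rl2, a receptor of the interleukin-1 family, on chr1:40372293-40372632 (mm9) had 48.3 and 60.1 normalized tags in mTEC-III, against 0.725 and 4.24 in mTEC-IV (log2 difference 4.19 ± 0.43 SE, adjusted p = 4.03e-05). An intergenic peak at -332616 bp from the start of Shh, a secreted morphogen, on chr5:29126092-29126422 (mm9), had 46.7 and 38.7 in mTEC-III, against 0 and 5.29 in mTEC-IV. Intergenic peaks nearest to Parp9, Gm10845 and Id3 and an intronic peak of Insr, the insulin receptor, had log2 differences of 3.86 to 3.97. On the other side, peaks at Tmem194b, Spata13 and Sephs1 were at 0 in both mTEC-III libraries. The Tmem194b peak had 66.1 and 43.9 in mTEC-IV and was at least 6.83-fold lower in mTEC-III, the Spata13 peak had 50.1 and 50.2 and was at least 6.23-fold lower, and the Sephs1 peak had 40.7 and 43.9 and was at least 5.25-fold lower.

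At gene level the 10 largest rises by the naming rule were Gsdma3, Ceacam18, Ifi204, Defb1, Ushbp1, Gdap1l1, Gprin2, Ntm, Snrpn and Tnr. Gsdma3 had 26.9 and 18.6 normalized tags in mTEC-III and was at 0 in mTEC-IV, which is at least 6.53-fold higher. Ifi204, an interferon-inducible DNA sensor, had 35.9 and 36.1 in mTEC-III, against 1.998 and 2.48 in mTEC-IV. Defb1, an antimicrobial beta-defensin, had 55.6 and 37.1 in mTEC-III, against 1.33 and 6.45 in mTEC-IV. Ntm and Tnr, cell adhesion and matrix genes of the nervous system, and Snrpn, an imprinted splicing gene, differed by 3.44, 3.38 and 3.41 on the log2 scale, but Ntm by -0.18 with peaks at any distance. The 10 largest falls were Fcgr2b, Apela, Ly6g6f, Trh, Ovol3, Il21, Dnase2b, Lcn3, Ikbip and Tat. Apela had 0 and 4.13 in mTEC-III, against 61.2 and 54.5 in mTEC-IV (log2 difference -4.70 ± 0.71 SE, adjusted p = 0.000234). Trh, the precursor of thyrotropin-releasing hormone, had 0 and 2.06 in mTEC-III, against 31.9 and 25.3 in mTEC-IV. Il21, a T cell cytokine, had 0 and 3.09 in mTEC-III, against 36.6 and 28.2 in mTEC-IV. Lcn3, a lipocalin, had 1.78 and 3.09 in mTEC-III, against 61.8 and 41.6 in mTEC-IV. Fcgr2b, an inhibitory Fc receptor of blood cells, was at 0 in both mTEC-III libraries with 22.6 and 28.7 in mTEC-IV, at least 3.03-fold lower. With peaks at any distance Trh, Il21 and Fcgr2b lost their call, at log2 differences of -0.51, -0.46 and -1.40. All but 5 of these 20 genes have 1 merged peak within 10 kb, and members of families such as Defb1, Ceacam18 and Ifi204 have related copies.

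The remaining lists had few calls, beside 6.19% of all tested genes called higher and 4.36% called lower. Of 15 tested tissue-restricted antigens, Crp and S100a8 were higher and none lower, and 24 of the 40 listed had no merged peak within 10 kb. With total-tag scaling 1 of these antigens was higher and 7 lower, beside a median of -0.79 for all genes. Crp had only 5.37 and 6.19 normalized tags in mTEC-III, against 0 and 0.987 in mTEC-IV, where 3 tags are 10.8 and 6.19 in mTEC-III. It passed the filter only through mTEC-I, with 68.0 and 63.2. Of 13 thymic epithelial regulators, Foxn1 and Pax9 were higher, Pax9 by 0.55 on the log2 scale but by -0.24 with total-tag scaling. Foxn1, the master factor of thymic epithelium, had 43.0 and 65.0 normalized tags in mTEC-III, against 34.6 and 19.8 in mTEC-IV (log2 difference 0.99 ± 0.28 SE, adjusted p = 0.0270, and 0.21 with total-tag scaling, not called). Among 16 tight junction genes Marveld3 was higher (0.64, but -0.15 with total-tag scaling) and Cdh1 lower, among 21 regulators of other lineages Foxa3 was higher, among 19 Notch pathway genes Jag2 was lower, and among 21 neural adhesion and synapse genes Nrxn3 was lower. The neural list had a median of -0.50 with 13 of 21 members negative, larger in size than the medians of the other lists of this paragraph. With total-tag scaling none was higher in the tight junction, other lineage, Notch and neural lists, while 14, 10, 12 and 12 were lower. Nrxn3, a presynaptic adhesion molecule, had 8.96 and 34.0 in mTEC-III, against 62.5 and 64.4 in mTEC-IV (log2 difference -1.79 ± 0.45 SE, adjusted p = 0.0133, but 0.130 with DESeq2).

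Markers of other cells that a sort could carry were looked up next. Ptprc, the gene of CD45, and Cd3e, Cd3d, Cd3g, Cd8a, Ms4a1, Pax5, Csf1r, Lyz2, Pecam1 and Cdh5 have no merged peak within 10 kb. Of 11 thymocyte markers 3 were tested, with summed signals of 75.3 and 85.6 normalized tags in mTEC-III against 106 and 111 in mTEC-IV. Among them Cd4 was at 0 in both mTEC-III libraries with 22.6 and 16.9 in mTEC-IV, at least 2.33-fold lower. Of 5 B cell markers 3 were tested, with sums of 69.9 and 92.8 in mTEC-III against 124 and 133 in mTEC-IV. None was called by limma, while 1 was called lower by edgeR and 2 had an unadjusted p under 0.05. Cd79a had 3.59 and 7.22 in mTEC-III against 25.9 and 23.8 in mTEC-IV (adjusted p = 0.0816). Of 4 tested endothelial markers Tek and Sox18 were lower, with list sums of 64.5 and 55.7 in mTEC-III against 106 and 116 in mTEC-IV. Cd4, Tek and Sox18, with Fcgr2b from outside these lists, were thus lower in mTEC-III than in mTEC-IV, as the tuft genes were. Sox18 also had signal in the mTEC-II libraries (15.7 and 22.4) and the mTEC-I libraries (31.9 and 39.4). Among the other tested members, 2 endothelial markers and 1 thymocyte marker had positive log2 differences, and all 3 B cell markers had negative ones. The part of other cells in these results was not tested. Of 4 tested myeloid markers none was called by limma or edgeR or had an unadjusted p under 0.05, with sums of 134 and 146 in mTEC-III against 118 and 124 in mTEC-IV. Of 4 tested mesenchymal markers Tagln was higher, with sums of 183 and 128 in mTEC-III against 108 and 127 in mTEC-IV. Of 7 tested markers of cortical epithelium Prss16 and Enpep were higher, with sums of 398 and 395 in mTEC-III against 339 and 307 in mTEC-IV.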

How the data were processed

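The 8 ATAC-seq libraries (2 each of mTEC-III, mTEC-IV, mTEC-II and mTEC-I) were deposited as a merged, annotated peak table and a peak list per library. Per the file headers, the merged table was made by the authors with HOMER on mm9 and holds signal, that is tags per peak scaled to 10000000 total tags of a library; the peak lists hold the authors' HOMER peak score and tag values, of which positions and the score were used. The submitters' processing notes also name bcl2fastq 2.15.0.4 and Picard 1.108. Nothing used here names the aligner, or says how duplicates, read shift and reads matching several places were treated.

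All values came out as whole read ends, 100% of them within a tolerance of 0.1. Since the values are scaled signal, the test was limma-trend (limma 3.58.1, R 4.3.3) and not a count test: log2(value + 1) after TMM factors, over all 8 libraries with population as the factor, for features with at least 10 normalized tags in at least 2 libraries, with Benjamini-Hochberg adjustment at 0.05 over all features tested. Factors were computed for peaks and for gene sums separately. A fold change on this scale understates the change of low features. edgeR 4.0.16 called 7983 higher and 7396 lower peaks, and 1040 higher and 768 lower genes, on the recovered read ends; DESeq2 1.42.0 was another alternative. Scaling to total tags or to promoter peaks, peak factors for genes (chosen after seeing the data), cyclic loess, other pseudocounts and filters, thinning to equal read ends in peaks, the 4 libraries alone and leaving out each library were also tried. The floor of 3 tags per library covers counting error only.

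The members and lists were chosen with earlier results of these data known. Genes were named by a rule: the sort genes, 8 epithelial genes, up to 4 genes each way per list, the 10 largest rises and falls with a higher group mean of at least 20, the 6 largest peaks each way and the 5 longest runs each way. Other list members named, the printed promoters and the repeat families were chosen after their values were seen. Promoter sequences came from the RefSeq table on GRCm38.p6, which held 67 of the 95 genes named by the rule. A few list members are not reported here.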

Additional observations from a re-analysis of the deposited data

How the results depend on the processing

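The higher peaks numbered 3995 with total-tag scaling, 4280 with the 4 libraries alone and 4621 after thinning each library to 866016 read ends in peaks, which matches neither total tags nor the share of tags in peaks, against 7214. The lower peaks numbered 16034 with total-tag scaling, 4056 with loess, 3840 with DESeq2, 4132 with a minimum of 20 tags and 3131 after thinning, against 6600. The higher genes numbered 276 with total-tag scaling, 587 with the factors of the peaks, 603 with the 4 libraries alone, 529 after thinning, 245 with peaks within 1 kb and 2097 with peaks at any distance, against 929. The lower genes numbered 7600, 1229 and 307 with total tags, peak factors and thinning, and 154 and 1711 with peaks within 1 kb and at any distance, against 654. Leaving out 1 library gave 3148 to 6270 higher and 247 to 7384 lower peaks, and 331 to 1074 higher and 74 to 1131 lower genes. The cause of these shifts was not tested, other than the smaller number of features tested without an mTEC-IV library.

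With a required overlap of 0.5 of the smaller peak, the mean overlap of own lists was 63.7% for mTEC-III and 28.7% for mTEC-IV, and with equal numbers of peaks 66.6% and 69.0%. Total-tag scaling turned the log2 difference of Itgb4 to -0.77, Epcam to -0.78, Tap1 to -0.071, B2m to -0.22, Tapbp to -0.29, Nfkbia to -0.10, Aloxe3 to -0.16, Marveld3 to -0.15, Pax9 to -0.24, Actb to -0.17, Hsp90ab1 to -0.27 and Ppia to -0.29. Peaks at any distance turned Epcam to -0.30, Vil1 to 0.25, Cd86 to -0.25, Calml3 to 0.12, Itgb6 to 0.31 and Ntm to -0.18. No other gene named by the rule turned its sign with a call in either setting. With a replicate block 7260 peaks were higher and 6669 lower, and 877 genes higher and 629 lower; of the named genes 3 lost their call (Tapbp, Pax9 and Ppia). Same-numbered libraries did not deviate together over peaks (r = -0.00328). This cannot show whether they were prepared together, and their pairing is not known. With DESeq2, 19 genes named by the rule lost their call. With the factors of the peaks, which shifted the median of all genes to -0.18, MHC class I had 1 call, the Aire stage 3 and NF-kB 5. Thinning left 4 calls in NF-kB, 4 in the tuft cytoskeleton and signalling list and 3 among tuft effectors.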
